A study of Mus musculus with 11 samples.

Results

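Genes of sodium and potassium channels were described in the hippocampus of 14-month-old mice by bulk RNA sequencing. The set was defined by gene name as the numbered Scn genes and the numbered Kcn genes, with Kcnj10 and Kcnj13 left out, among protein-coding genes. Of 103 such genes, 72 reached an FPKM (a level scaled to transcript length and library size) of at least 1 in at least 3 of 11 libraries, out of 14428 genes that passed the same minimum. The name covers more than voltage-gated channels. The 72 genes comprised 4 pore-forming and 4 beta subunits of sodium channels, 32 genes of the voltage-gated potassium channel pore families, the pore of the BK channel and 8 accessory subunits of potassium channels. The others were 9 inward rectifiers, 9 two-pore channels, 3 calcium-activated SK channels and 2 sodium-activated channels, which are not opened by voltage in the same way.

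Voltage-gated sodium channels carry the rising phase of the action potential, and their beta subunits are membrane proteins that set gating and anchoring. Voltage-gated potassium channels repolarise the neuron and limit its firing, with Kv1 channels along axons, Kv2 channels at the soma, Kv3 channels in fast-spiking cells, Kv4 channels in dendrites and Kv7 channels carrying the M current. Inward rectifiers and two-pore channels hold the resting potential. Hippocampal neurons of mice that deposit amyloid are known for altered excitability.

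The study used APP/PS1 transgenic mice, which carry disease-linked genes of amyloid precursor protein and presenilin and form plaques with age. Of the 11 libraries, 4 came from APP/PS1 mice kept under a rotating magnetic field (RMF, 0.4 T), 3 from sham-exposed APP/PS1 mice and 4 from wild-type (WT) C57BL/6J mice matched in age. Field and sham sessions were held on 5 days a week over 12 months, lasting 3 h at ages of 2 to 11 months and 6 h at ages of 11 to 14 months. The labels name neither the transgenic line nor its promoters, do not say whether WT mice were placed in the apparatus, and do not tie each library to an animal. Since the library protocol mentions pooled RNA, the p-values reflect only how far these libraries differ, and part of that may be technical. The labels give neurons as the cell type but record no isolation step, and summed levels of 10 oligodendrocyte markers of 4847 to 9919 CPM (counts relative to library size) in RMF, 4079 to 8562 CPM in sham and 2549 to 8389 CPM in WT libraries are those of whole tissue. In such tissue, fewer cells of a type and less RNA per cell cannot be told apart.

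Most potassium channel pores share a coding pattern at their selectivity filter, which lets potassium through. The codons of its signature, a threonine, a hydrophobic residue, a glycine, an aromatic residue and a glycine, were searched for loosely as a threonine codon, a codon with T in the middle, a glycine codon, a codon starting with T and a glycine codon. This pattern, with no limit on the other bases, was searched in frame, on the coding strand, in the longest annotated coding sequence of each gene (GENCODE M21, build GRCm38). It was found in 47 of the 72 members and in 187 of 21592 coding genes, or 0.866% of them. The windows below show how the 15 bases of the pattern recur in channels of different families. Capitals mark the matched bases, 15 bases are given on each side, and letters run 5′ to 3′ on the coding strand.
Kcna2: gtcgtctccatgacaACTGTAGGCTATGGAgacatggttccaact
Kcnf1: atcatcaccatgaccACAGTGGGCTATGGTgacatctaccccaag
Kcnma1: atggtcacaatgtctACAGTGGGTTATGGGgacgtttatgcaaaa
Kcnt1: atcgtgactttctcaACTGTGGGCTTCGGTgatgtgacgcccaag
Kcnh5: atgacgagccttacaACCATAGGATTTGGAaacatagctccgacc
Kcnj3: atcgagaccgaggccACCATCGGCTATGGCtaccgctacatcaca
Kcnj4: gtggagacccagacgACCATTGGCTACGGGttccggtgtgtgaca
Kcnj9: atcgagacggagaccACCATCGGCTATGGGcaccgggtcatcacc
Kcnk2, site 1: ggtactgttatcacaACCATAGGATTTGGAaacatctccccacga
Kcnk2, site 2: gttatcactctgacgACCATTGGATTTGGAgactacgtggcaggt
The matched bases lay at chr3:107105224-107105238 in exon 3 of Kcna2, on the plus strand and at chr15:79485367-79485381 in exon 2 of Kcnj4, on the minus strand, all coding sequence of GRCm38. All 5 Kv1, 2 Kv2, 4 Kv3, 3 Kv4, 4 Kv7, 8 silent Kv and 9 inward rectifier members held the pattern. Of the 9 two-pore members, 8 held it, and 7 held it at more than 1 site, as the windows of Kcnk2 show. It was absent from these coding sequences in the 8 sodium channel members, in the 7 KChIP and Kv beta members, which form no pore, in the 3 SK members and in 5 of the 6 Kcnh members, where Kcnh5 alone matched. A missing match says only that these letters did not occur in that coding sequence.

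Library totals lay between 68124548 and 70786786 counts, of which the 72 genes took 0.733% to 0.817%. The third WT library (WT 3) stood apart. Its summed dentate granule cell markers were 301 CPM against 612 to 886 CPM in the other 10 libraries, and its summed neocortical markers were 1102 CPM against 402 to 571 CPM. CA pyramidal cell markers summed to 713 CPM in WT 3 and to 1022 to 1170 CPM in the others. Sham 4 had the highest mitochondrial share, 9.53% of counts against 5.76% to 7.39% elsewhere. Between groups, summed microglial markers were 647 to 776 CPM in RMF, 586 to 757 CPM in sham and 373 to 456 CPM in WT libraries, and summed pan-neuronal markers were 6584 to 7398, 7513 to 8294 and 6980.1 to 8744 CPM in the same order. Summed levels of 9 skeletal muscle markers were 5.01 to 7.32 CPM in RMF, 4.93 to 6.12 CPM in sham and 45.7 to 68.5 CPM in WT libraries, a separation that every comparison with WT holds. The part of these differences in the channel levels was not tested. Counts against WT and several differences that move without WT 3 are also given without it.

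Accessory subunits were among the members of highest level. Mean FPKM over 11 libraries was 108 for Kcnab2, a cytoplasmic Kv beta subunit, 62.9 for Scn3b and 49.7 for Scn2b, beta subunits of sodium channels, and 45.2 for Kcnip2, a calcium-binding partner of Kv4 channels. The median member had 8.9 FPKM, against 5.52 FPKM for all genes tested. Mean levels were under 2 FPKM in 12 members, 2 to 20 FPKM in 44, 20 to 50 FPKM in 13 and above that in 3.

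**Figure D1:**
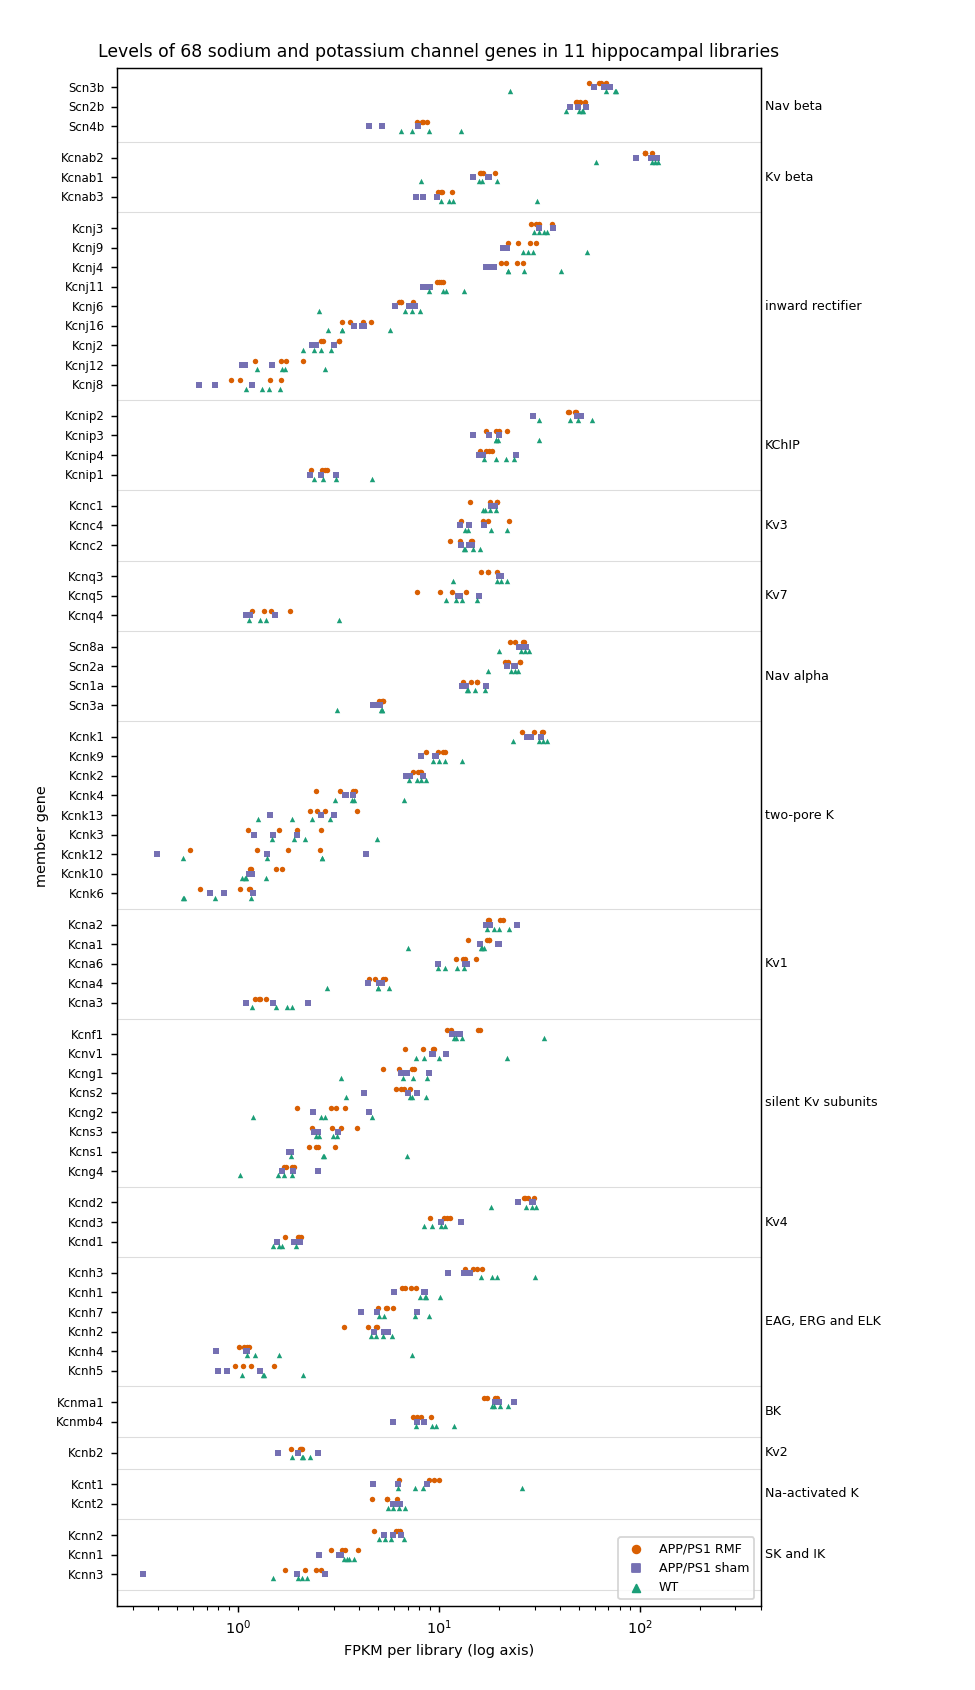
FPKM (log axis) of 68 of the 72 genes in every library, grouped by family, with RMF, sham and WT libraries drawn as separate rows of points within a gene. Kcnab2 (mean 108 FPKM) lies furthest right among those drawn, and for many genes 1 WT point lies away from the other 10.

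Among the pore-forming sodium channel genes, Scn8a, the main channel of the mature axon initial segment, had 22.7, 26.6, 26.3 and 23.9 FPKM in RMF, 25.7, 25 and 27.1 FPKM in sham and 25.8, 26.8, 19.9 and 28.1 FPKM in WT libraries. Scn2a, found on excitatory neurons, had 22.1, 25.3, 25.4 and 21.4 FPKM in RMF, 21.9, 23.7 and 24.1 FPKM in sham and 22.8, 24.7, 17.7 and 23.9 FPKM in WT libraries. The 2 genes overlapped in level, and their ranges overlapped between all 3 groups. Scn1a, the channel of fast-spiking interneurons, had 13.2, 15.5, 15.4 and 14.5 FPKM in RMF, 13.6, 13.1 and 17.1 FPKM in sham and 13.8, 15.1, 17 and 14 FPKM in WT libraries, below Scn2a in each library. Scn3a, which is mainly embryonic, averaged 5.2 ± 0.111 FPKM in RMF, 4.86 ± 0.195 FPKM in sham and 4.68 ± 1.04 FPKM in WT libraries (SD, n = 4, 3 and 4). Summed over the 4 genes, the groups averaged 68.3 ± 4.94 FPKM in RMF, 68.7 ± 3.8 FPKM in sham and 67.1 ± 6.54 FPKM in WT libraries (SD), differences smaller than the spread within a group.

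Among the potassium channel pores, Kcnq3, a subunit of the M channel, had 19.5, 17.7, 17.6 and 16.3 FPKM in RMF, 20, 20 and 20.3 FPKM in sham and 19.5, 21.8, 11.7 and 20.5 FPKM in WT libraries. Kcnj3, Kcnj9 and Kcnj6, subunits of the G-protein-gated inward rectifier, averaged 32.5, 28 and 6.58 FPKM, and Kcnk1, a two-pore channel, 30.2 FPKM. Kcnc1, a fast Kv3 channel, averaged 18 FPKM. Kcnd2, the dendritic A-type channel of pyramidal cells, averaged 27.3 FPKM, and Kcnma1, the pore of the BK channel, 19.6 FPKM. The axonal Kv1 genes Kcna2, Kcna1 and Kcna4 averaged 19.5, 16.3 and 4.83 FPKM. Kcnf1, a silent subunit that alters Kv2 channels, averaged 14.7 FPKM, Kcnt1, a sodium-activated channel, 9.31 FPKM, and Kcnn2, an SK channel, 5.84 FPKM.

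The other 31 genes of the name pattern stayed below the minimum, and 16 of them averaged under 0.1 FPKM, including Scn4a and Scn10a, the sodium channels of muscle and of sensory neurons. Scn4a had 8, 8, 0 and 4 counts in RMF, 6, 4 and 0 counts in sham and 0, 7, 7 and 15 counts in WT libraries. By the third-highest library, which decides membership, Kcnu1 with 0.902 FPKM, Kcnj14 with 0.869 FPKM and Kcnmb2 with 0.867 FPKM lay closest below the minimum. Closest above it by the same measure were Kcnk6 with 1.15 FPKM, Kcnh4 with 1.21 FPKM and Kcnh5 with 1.35 FPKM. The minimum was reached in all 11 libraries by 66 members. Kcne2, a small subunit of choroid plexus channels, had 24, 50, 29 and 23 counts in RMF, 4, 27 and 40 counts in sham and 146, 19, 20 and 29 counts in WT libraries. It was highest in WT 1, where the 4 tested choroid plexus markers also summed highest, to 562 CPM against 191 to 511 CPM in the other 10 libraries. RMF 1, with the next highest sum of 511 CPM, had only 24 counts of Kcne2, and RMF 2 had 50 counts at 276 CPM. Whether Kcne2 follows these markers was not tested.

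Kcnj15, an inward rectifier known from kidney, was 1 of these 31 genes and was singled out after its values were seen. It had 88, 106, 46 and 59 counts in RMF, 61, 37 and 34 counts in sham and 0, 8, 0 and 0 counts in WT libraries, so each APP/PS1 library lay above each WT library. Of the 14428 genes tested, which do not include Kcnj15, 2.27% had such a separation in that direction. Without a minimum on FPKM, edgeR's adjusted p for Kcnj15 was 0.0297 for RMF against WT, 0.0815 for sham against WT and 0.908 in the RMF to sham comparison. For APP/PS1 against WT it was 0.0313. With a minimum of 0.1 FPKM it was 0.0118 for RMF against WT, 0.0388 for sham against WT and 0.0129 for APP/PS1 against WT. The RMF to sham comparison then had 0.990. Its level was 0.163 ± 0.0597 FPKM in RMF, 0.0948 ± 0.0332 FPKM in sham and 0.00435 ± 0.00869 FPKM in WT libraries (SD, n = 4, 3 and 4). Kcnj1, another renal channel, had 12, 34, 32 and 0 counts in RMF, 8, 18 and 14 counts in sham and 4, 0, 0 and 0 counts in WT libraries and passed in no comparison of edgeR without a minimum. At that setting no other of the 31 genes passed.

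Of the 11 libraries, WT 3 was an extreme for the most members and lay furthest from their medians. It was the lowest or highest of 11 libraries for 51 members, or 70.8%, against 51.3% of all genes tested. Its median distance from a gene's median was 0.53 on the log2 scale over the members and 0.24 over all genes. Relative to the mean of WT 1, 2 and 4, WT 3 was over 1.5 times as high in 20 members and under the inverse of that in 16. Kcnh4 stood at 5.48 times, Kcnt1 at 3.42 times, Kcns1 at 2.83 times, Kcnab3 at 2.72 times and Kcnf1 at 2.64 times the other WT libraries. Scn3b stood at 0.302 times, Kcnj6 at 0.335 times, Kcng2 at 0.351 times and Kcna1 at 0.418 times. The highest library exceeded the lowest by more than 2 times in 35 members, or 48.6%, against 28.8% of all genes. Without WT 3 it did so in 11 members, and in 19.4% of all genes. Whether the marker shift of WT 3 accounts for this was not tested.

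**Figure D2:**
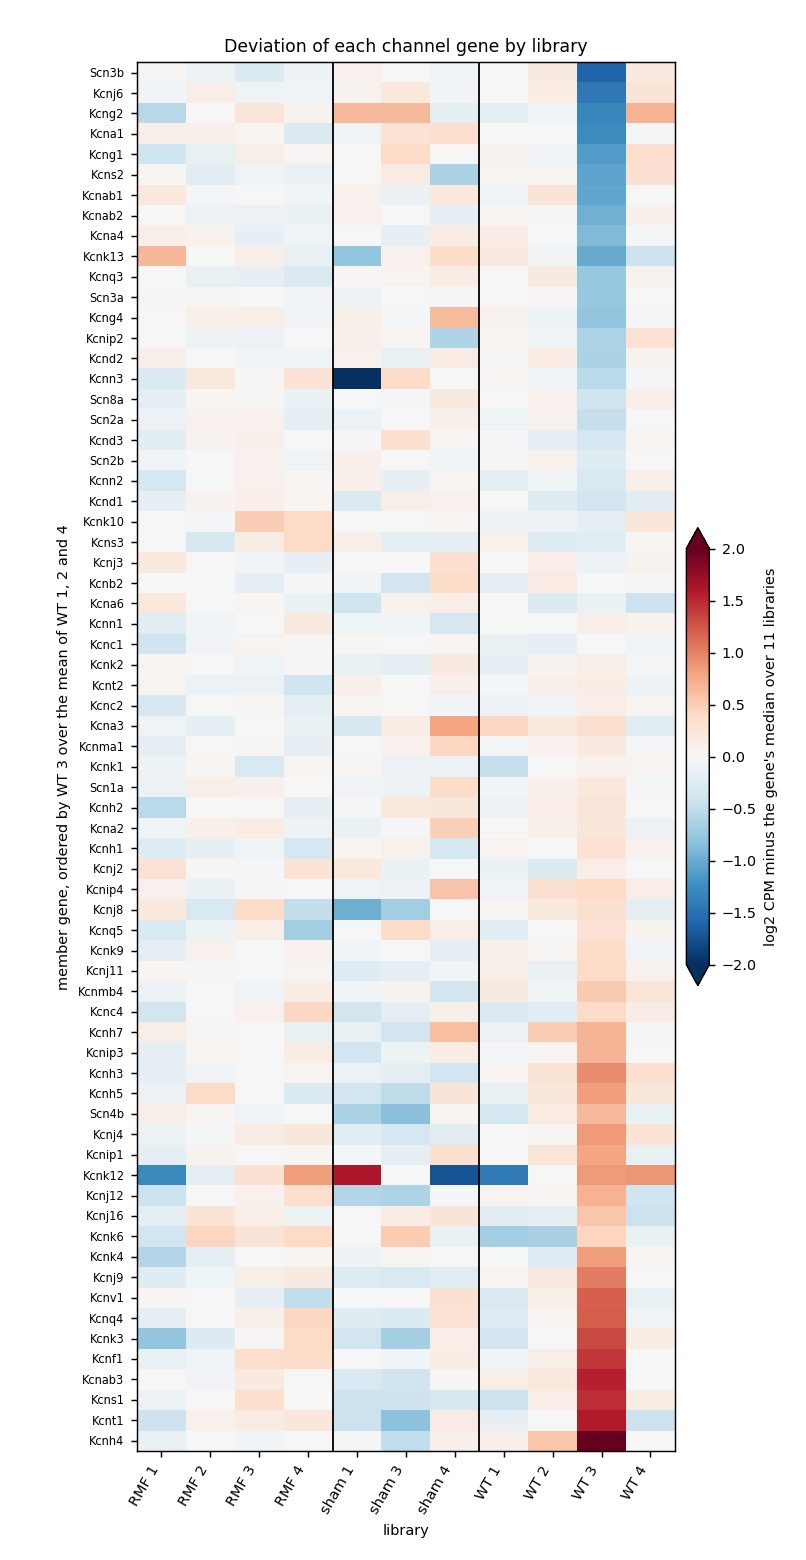
Log2 CPM of 68 of the 72 genes minus the median of each over 11 libraries, with RMF, sham and WT libraries from left to right and genes ordered by the ratio of WT 3 to the mean of the other WT libraries. The column of WT 3 runs from lowest (Scn3b, ratio 0.302) at the top to highest (Kcnh4, ratio 5.48) at the bottom, while the other 10 columns are pale for most genes.

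RMF against sham asks what the field did within APP/PS1 mice. No member passed edgeR's quasi-likelihood test at an adjusted p of 0.05, where 0% of all 14428 genes passed. The smallest adjusted p of a member was 0.719 and DESeq2 called 0 members. At an unadjusted p of 0.05, 1 member passed, or 1.39%, against 6.89% of all genes in either direction and 2.68% lower in RMF. This was Kcnma1, whose BK channel shortens the action potential. It had 298, 335, 343 and 301 CPM in RMF and 338, 358 and 449 CPM in sham libraries, a log2 difference of -0.26 (SE 0.11, edgeR p 0.0326). The groups overlapped, and the highest value was that of sham 4, without which the log2 difference was -0.13 (edgeR p 0.202). Without sham 4, 2 members passed at an unadjusted p of 0.05 in the higher direction. They were Scn4b (log2 difference 0.75, edgeR p 0.00902) and Kcnj8 (0.81, edgeR p 0.0156). In the lower direction 1 passed, Kcnh1 (-0.28, edgeR p 0.0186). Each had an adjusted p of 0.986 in edgeR, and the share of all genes in that fit is not given here.

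Groups did not overlap in 5 members of this comparison. RMF was above sham in Kcns1, Kcnj4 and Kcnj11 (5.93% of all genes) and below it in 2 members (4.72% of all genes), Kcnq3 among them. Kcnj4, the strong inward rectifier Kir2.3, had 45.8, 48.5, 54.8 and 57.6 CPM in RMF and 42.3, 38.9 and 42 CPM in sham libraries, a log2 difference of 0.33 with a 95% interval of -0.07 to 0.73. Kcnj11, the pore of the ATP-sensitive potassium channel, had 39.3, 37.4, 38.1 and 39.5 CPM in RMF and 31.9, 33.7 and 36.8 CPM in sham libraries, a log2 difference of 0.18 with a 95% interval of -0.06 to 0.42. Kcnq3 had 298, 269, 267 and 244 CPM in RMF and 306, 310.4 and 332 CPM in sham libraries, a log2 difference of -0.23 with a 95% interval of -0.62 to 0.16. Each of these intervals includes 0, and the RMF values lay close to the sham values.

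The intervals bound what these libraries could show. Over the 72 members the log2 difference of RMF minus sham had a median of -0.02, against -0.0021 over all genes, and ranged between -0.45 and 0.48. The 95% interval lay within 1.5-fold in both directions for 39 members and within 2-fold for 63 members, against 67.4% and 88.3% of all genes. The interval for Scn8a was -0.37 to 0.15, for Scn2a -0.30 to 0.24 and for Scn1a -0.31 to 0.21. For Kcnd2 it was -0.39 to 0.30, for Kcna2 -0.42 to 0.20 and for Kcnc1 -0.33 to 0.11. Kcnq5, another Kv7 subunit, had 81, 93.2, 109 and 61.4 CPM in RMF and 99.6, 129 and 109 CPM in sham libraries, a log2 difference of -0.38 and an interval of -0.77 to 0.00. Its RMF values spanned a wider range than its sham values, and the groups overlapped at their edge.

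**Figure D3:**
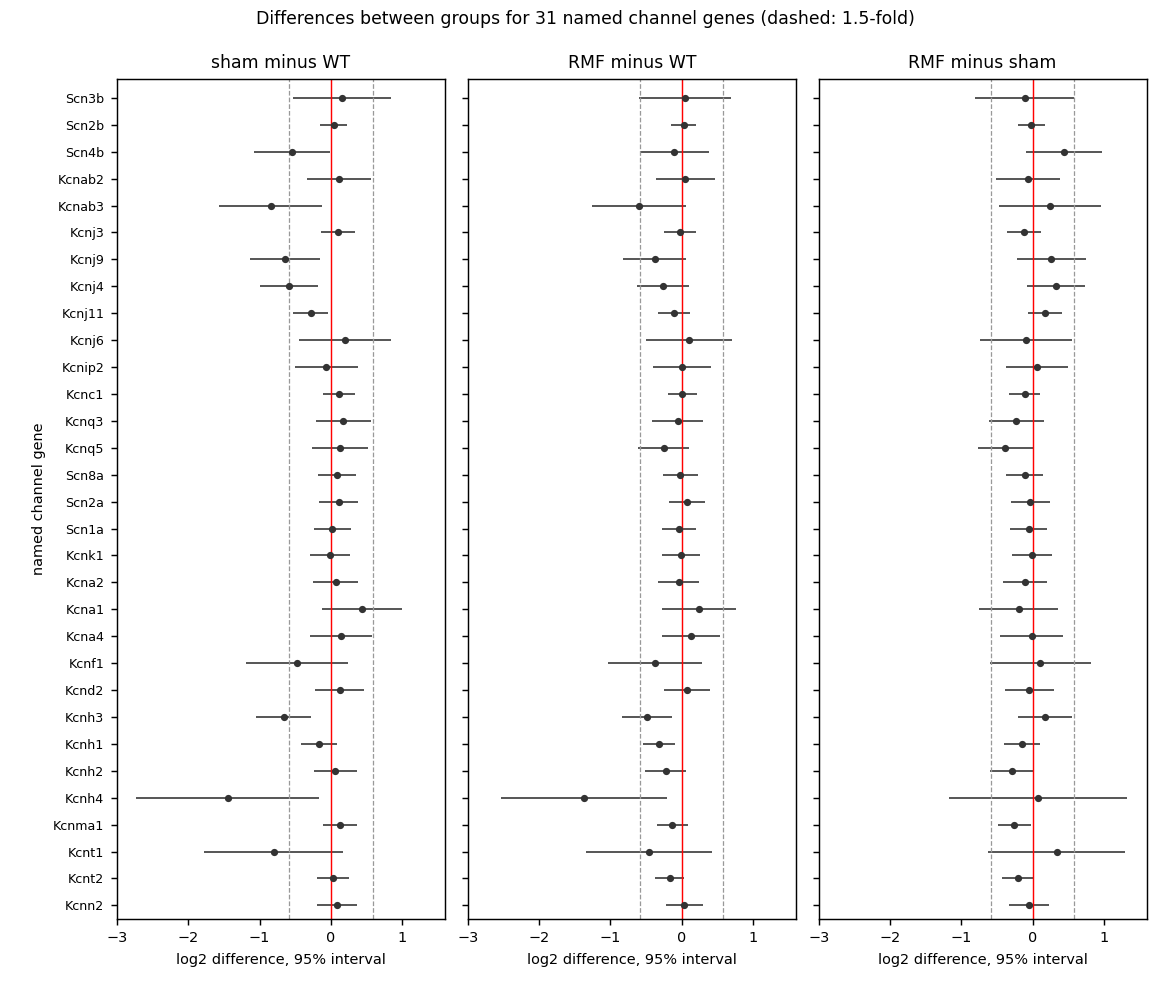
Log2 differences with 95% intervals for 31 of the 35 members chosen by rule, for sham minus WT, RMF minus WT and RMF minus sham, with dashed lines at 1.5-fold and a red line at 0. The interval of Kcnh3 lies below 0 in both comparisons with WT (-1.05 to -0.28 for sham, -0.84 to -0.14 for RMF), while no gene's point lies past the dashed lines in RMF minus sham.

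Sham against WT compares the transgenic genotype without the field. No member passed edgeR's test at an adjusted p of 0.05, where 0.929% of all genes did, and the smallest adjusted p of a member was 0.151. At an unadjusted p of 0.05, 10 members passed, or 13.9%, against 13.2% of all genes. All 10 were lower in sham, against 6.53% of all genes in that direction. They included Kcnh3 and Kcnh4 of the Kv12 channels, the inward rectifiers Kcnj4, Kcnj9 and Kcnj11, the sodium channel subunit Scn4b, and Kcnab3, Kcns1 and Kcnmb4. Without WT 3, 5 members passed in the lower direction (5.09% of all genes) and 2 in the higher direction (6.62% of all genes). Of those named, Kcnh3, Kcnj4, Kcnj9 and Kcnab3 still passed. Kcnj11, Scn4b, Kcns1, Kcnmb4 and Kcnh4 then did not, with edgeR p of 0.0582, 0.130, 0.0702, 0.0884 and 0.0947.

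Kcnh3, the Kv12.2 channel of forebrain neurons, had 80.6, 88.5, 92.5 and 96.1 CPM in RMF, 85.5, 81.1 and 71.2 CPM in sham and 96.5, 111, 177 and 117 CPM in WT libraries. The 7 APP/PS1 libraries lay below each WT library, with the RMF 4 value just under the WT 1 value. Means were 89.4 ± 6.65 CPM in RMF, 79.3 ± 7.32 CPM in sham and 126 ± 35.6 CPM in WT libraries (SD, n = 4, 3 and 4). The log2 difference of sham minus WT was -0.66 (SE 0.17), with an adjusted p of 0.151 in edgeR. DESeq2 called it (adjusted p 0.0165), and so did limma with library weights (adjusted p 0.0449). Over all settings the adjusted p ranged between 0.0165 and 0.443, and without WT 3 the log2 difference was -0.45 and edgeR's adjusted p 0.0556. In the table's coordinates, which are not those of the sequence windows, the gene lies on chromosome 15, positions 99122742 to 99140698.

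Groups did not overlap between sham and WT in 5 members, all lower in sham (6% of all genes), and in 0 members in the other direction (6.67% of all genes). Without WT 3 they did not overlap in 6 members lower in sham (7.87% of all genes) and 3 higher, Kcnc1, Kcnj16 and Kcnk6 (8.75% of all genes). Besides Kcnh3 these included Kcnj4, Kcnj9 and Kcnn1. Kcnj4 had 42.3, 38.9 and 42 CPM in sham and 49.2, 50, 89 and 59.7 CPM in WT libraries, a log2 difference of -0.59 (SE 0.18, edgeR's adjusted p 0.226). Without WT 3 that difference was -0.37. Kcnj9, the GIRK3 subunit, had 97.8, 94.3 and 101 CPM in sham and 122, 133, 239 and 117 CPM in WT libraries, a log2 difference of -0.64 (SE 0.22) and of -0.34 without WT 3. In both genes WT 3 was the highest library, and the other WT libraries still lay above sham.

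Other differences from WT were much smaller once WT 3 was left out. Kcnh4, the Kv12.3 channel, had 4.2, 4.55, 4.41 and 4.59 CPM in RMF, 4.5, 3.25 and 4.91 CPM in sham and 4.94, 6.71, 29.7 and 4.61 CPM in WT libraries. Its log2 difference of sham minus WT was -1.45, and -0.36 without WT 3. Kcnab3, a Kv beta subunit, had 24.8, 23.2 and 31.2 CPM in sham and 33.3, 35.5, 90.3 and 30.7 CPM in WT libraries, a log2 difference of -0.85, and of -0.33 without WT 3. Kcnt1 had 62, 47 and 92.8 CPM in sham and 74.2, 83.2, 249.7 and 62 CPM in WT libraries, a log2 difference of -0.80, and of -0.12 without WT 3. For Scn3b the sign depended on this library, with a log2 difference of 0.16 and of -0.12 without it.

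RMF against WT combines genotype and field. No member passed edgeR's test at an adjusted p of 0.05, where 1.19% of all genes did, the smallest adjusted p was 0.329 and DESeq2 called 0 members. At an unadjusted p of 0.05, 3 members passed, all lower in RMF, or 4.17% against 8.4% of all genes in either direction and 3.22% in that direction. They were Kcnh3, Kcnh1 and Kcnh4, and for these the groups also did not overlap (2.54% of all genes in that direction). Without WT 3, 5 members passed in the lower direction (3.78% of all genes) and 3 in the higher, Kcnj2, Kcnj16 and Kcnk6 (6.04% of all genes). The groups then did not overlap in 6 members lower in RMF (5.73% of all genes) and in 0 higher (7.06% of all genes). The comparison shares its WT libraries with sham against WT, so both hold WT 3. Kcnh3 had a log2 difference of -0.49 (SE 0.16), and of -0.28 without WT 3. Kcnh4 had one of -1.37, and of -0.29 without WT 3, where edgeR's unadjusted p was 0.145. Kcnh1, an EAG channel, had 51.6, 55, 58.7 and 49.2 CPM in RMF and 64.4, 61.9, 75.7 and 65.6 CPM in WT libraries, a log2 difference of -0.32 (SE 0.10, edgeR's adjusted p 0.343). Without WT 3 it was -0.25, with the RMF values still below the other WT values.

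All 7 APP/PS1 libraries were also set against the 4 WT libraries. No member passed at an adjusted p of 0.05 in edgeR, where 1.43% of all genes did, and 9 passed at an unadjusted p of 0.05, all lower, or 12.5% against 12% of all genes in either direction and 5.69% in that direction. Without WT 3, 6 passed in the lower direction (4.1% of all genes) and 2 in the higher, Kcnj16 and Kcnk6 (6.04% of all genes). Kcnh3 was the 1 member whose groups did not overlap (0.936% of all genes in that direction). It averaged a log2 difference of -0.58 (SE 0.14), with an adjusted p of 0.0898 in edgeR. DESeq2 gave an adjusted p of 0.00657 and called it, limma with library weights gave 0.0359, and edgeR without WT 1 gave 0.0377. Without WT 3, edgeR's adjusted p was 0.0526 and the log2 difference -0.36. The gene thus lay near the threshold, on either side of it by tool and library, and lower in APP/PS1 libraries at each setting.

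**Figure D4:**
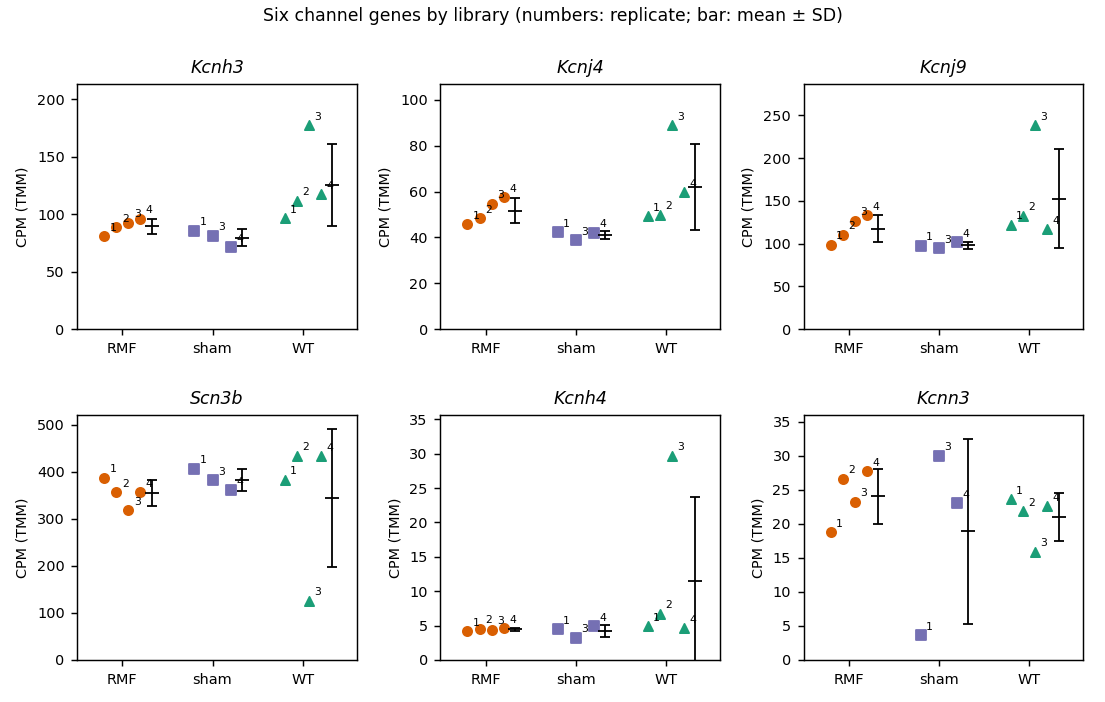
CPM of Kcnh3, Kcnj4, Kcnj9, Scn3b, Kcnh4 and Kcnn3 in each library, with RMF, sham and WT from left to right, the replicate number beside each point and the mean ± SD at the right of each group. WT 3 is the highest point of Kcnh3 (177 CPM) and Kcnh4 (29.7 CPM) and the lowest of Scn3b (126 CPM), and sham 1 is the lowest of Kcnn3 (3.66 CPM).

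By family, the 6 Kcnh members (EAG, ERG and ELK channels) had a log2 difference below 0 in APP/PS1 against WT in 6 of 6 cases, with a median of -0.331. Of them, 3 had an unadjusted p below 0.05 in edgeR, where 5.69% of all genes did in that direction. The 4 KChIP members were below 0 in 4 of 4 cases (median -0.194) and the 3 Kv4 members, their partners, above 0 in 3 of 3 cases (median 0.18), with no member of either family at an unadjusted p below 0.05. Nav alpha genes had a median of 0.0636, Kv1 genes of 0.133 and inward rectifiers of -0.193. Over all 72 members the median was -0.02, against -0.0041 over all genes, and 30 members were above 0, against 49% of all genes. In edgeR with all libraries 0 of these single differences passed the adjusted threshold, and Kcnh3 passed it with the other tools and without WT 1, as given above.

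These 6 family medians were nearer 0 without WT 3, while those of some other families moved away from 0. The Kcnh members were still below 0 in 6 of 6 cases, with a median of -0.184. Of them 1, Kcnh3, had an unadjusted p below 0.05 in edgeR, where 4.1% of all genes did in that direction. The KChIP median was -0.0584, with 4 of 4 members below 0, and that of the Kv4 members 0.112, with 2 of 3 above 0 and Kcnd2 at -0.05. The Nav alpha median changed sign to -0.0221, that of the Kv1 genes was 0.0727 and that of the inward rectifiers -0.0989. Among the other families, the Nav beta median moved from -0.109 to -0.121, with 4 of 4 members below 0 without WT 3. The Kv beta median moved from 0.0823 to -0.112 and the SK median from 0.0226 to -0.0896, each with 3 of 3 members then below 0. The two-pore median moved from -0.00916 to 0.0439, and the medians of all remaining families were nearer 0. Over all 72 members the median was -0.03, with 24 members above 0.

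Genes that anchor, traffic or accompany the channels were followed in a list of 38, of which 35 were tested. The list held Hcn and Nalcn leak channels, Dpp6 and Dpp10 as Kv4 partners, ankyrins and other proteins of the axon initial segment and node, Fgf11 to Fgf14, which bind sodium channels, and Bace1, the protease that cleaves amyloid precursor protein and the sodium channel beta subunits. In edgeR and in DESeq2 0 of 35 passed an adjusted p of 0.05 in RMF against sham, sham against WT, RMF against WT or APP/PS1 against WT. At an unadjusted p of 0.05 in edgeR, 5 passed in RMF against sham, or 14.3% against 6.89% of all genes, and 3 in sham against WT, or 8.57% against 13.2%. In RMF against WT 0 passed, against 8.4% of all genes, and in APP/PS1 against WT 1 passed, or 2.86% against 12%. Without WT 3, 2 genes (5.71%) were higher and 2 (5.71%) lower in sham against WT, against 6.62% and 5.09% of all genes. In RMF against WT it was 1 higher (2.86%) and 3 lower (8.57%), against 6.04% and 3.78% of all genes. In APP/PS1 against WT it was 0 higher and 2 lower (5.71%), against 6.04% and 4.1% of all genes. The 5 genes of RMF against sham, Fgf14, Dlg2, Ank2, Adam23 and Unc79, were all lower in RMF, with log2 differences of -0.26, -0.21, -0.22, -0.19 and -0.20. In that direction 2.68% of all genes had an unadjusted p below 0.05 in edgeR. Without sham 4 none of the 5 had an unadjusted p below 0.05 in edgeR. At that level 2 other genes of the list (5.71%), Lgi2 and Lrrc55, were then higher in RMF. The share of all genes in that fit is not given here.

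The 3 genes of highest level in this list had mean FPKM of 50.4 for Dlg4, the postsynaptic scaffold PSD-95, 47.1 for Lingo1 and 43.8 for Fgf13. Fgf13 had 170.4, 172, 172 and 171 CPM in RMF, 215, 209.8 and 204 CPM in sham and 182, 199, 116 and 212 CPM in WT libraries, so RMF lay below sham without overlap while WT 3 was the lowest of all. Its log2 difference of RMF minus sham was -0.29 (edgeR's adjusted p 0.756). Dlg4 had log2 differences of 0.00 for RMF minus sham and -0.14 for sham minus WT. Bace1 had 138, 135, 139.6 and 128 CPM in RMF, 127, 146 and 136 CPM in sham and 133, 133, 114 and 141 CPM in WT libraries, and the 3 groups overlapped.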

How the data were processed

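Hippocampal RNA of 11 libraries was measured by oligo(dT)-selected paired-end sequencing of 150 bases from 5 µg of RNA, per the labels' protocols. Per the submitters' processing notes, reads were handled with Cutadapt 1.9, HISAT2 2.0.4, StringTie 1.3.4d and edgeR. The notes name a human build although the gene identifiers are of mouse. The mouse build was not given in the sources used here. Gene coordinates follow the table, where Kcna2 spans 107008462 to 107022321 on chromosome 3 and Kcnj4 79367915 to 79389442 on chromosome 15. The GRCm38 windows of both genes lie outside these spans, so gene coordinates and window positions are not of the same build. The sequence windows are from GENCODE M21 on GRCm38. The table the authors deposited holds unnormalized whole-number counts and, from the same authors, FPKM values. FPKM is count over transcript length and library scale, and the ratio of both varied by under 1% between libraries for 94.5% of 16730 genes checked. How reads were counted, with or without strand, and how multiply matching reads were treated was not given in the sources used here, so overlapping genes and close paralogs are uncertain. Another 2 columns of values matched no sample and were not used.

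Counts were fitted with edgeR 4.0.16 (R 4.3.3), with TMM scaling, 3 groups and no covariate, on the 14428 genes at 1 FPKM or more in 3 or more libraries. Quasi-likelihood p-values were adjusted by Benjamini-Hochberg over all of these, with a threshold of 0.05. The fit was tested on simulated data. CPM values are TMM-scaled and levels between genes are compared in FPKM. Alternatives were DESeq2 1.42.0, limma 3.58.1 with library weights, other filters, scaling and dispersion, the length trend removed, a replicate block and libraries left out. Groups shared replicate numbers, but labels name no pairing and same-numbered libraries did not deviate together. The members chosen by rule, 35 in all, were the 5 of smallest p in each comparison and the highest of each family. The 5 highest overall and 17 textbook hippocampal channels also belonged to them. Others are named where groups did not overlap, where a value lies at the minimum, where WT 3 stands apart or where sham 4 is left out. Results of some members are not reported here singly and are not drawn, while counts over the 72 include them. The members, families and lists were chosen with earlier results of these data known.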

Additional observations from a re-analysis of the deposited data

Results flagged for a closer look

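In each group of 4 libraries, RMF and WT, the highest and lowest value of the 35 members chosen by rule was compared with the others, a check that flags about 1 in 20 groups by chance. Of 70 groups, 11 were flagged, 8 of them for WT 3.

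Among the WT libraries, WT 3 lay below the other 3 for Kcnab2 (430.7 CPM against 847 to 900.4 CPM), Scn3b (125.9 CPM against 383 to 434 CPM) and Kcna1 (34.23 CPM against 80.74 to 82.79 CPM). It lay above the other 3 for Kcnj9 (238.6 CPM against 117.1 to 132.8 CPM), Kcnf1 (162.5 CPM against 58.4 to 65.87 CPM) and Kcnab3 (90.31 CPM against 30.65 to 35.51 CPM). The same held for Kcnt1 (249.7 CPM against 61.98 to 83.24 CPM) and Kcnh4 (29.7 CPM against 4.613 to 6.709 CPM). Summed dentate granule cell markers were lowest, and summed neocortical and interneuron markers highest, in this library, at 301, 1102 and 1117 CPM. Their part in these values was not tested.

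Among the RMF libraries, RMF 1 lay above the others for Kcnab2 (841.1 CPM against 762.1 to 770.4 CPM), RMF 4 below the others for Kcna1 (68.23 CPM against 86.28 to 88.54 CPM) and RMF 2 above the others for Kcnj6 (58.62 CPM against 50.36 to 51.58 CPM). The gaps were small beside the differences of WT 3.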

How the results depend on the processing

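The count of members called by edgeR was 0 in each of the 4 comparisons, and 5 settings moved it to 1 in at least 1 comparison. With all libraries, edgeR called 134 of all genes for sham against WT, 172 for RMF against WT and 206 for APP/PS1 against WT. For sham against WT the count of members was 1 with DESeq2 (345 of all genes) and 1 with library weights (252 of all genes), in each case Kcnh3. For RMF against WT it was 1 with WT 3 and sham 4 left out together (260 of all genes). For APP/PS1 against WT it was 1 with DESeq2, with library weights and at an adjusted p below 0.1 (Kcnh3). In the same order, 410, 320 and 274 of all genes passed. Leaving out 1 library at a time gave 0 to 1 calls for APP/PS1 against WT, the 1 being without WT 1 (168 of all genes). It gave 0 in each of the other comparisons. At an unadjusted p of 0.05, leaving out 1 library gave 0 to 4 members lower and 0 to 2 higher for RMF against sham, and 4 to 13 lower and 0 to 2 higher for sham against WT, with 4 lower without sham 1 or sham 3. It gave 3 to 9 lower and 0 to 3 higher for RMF against WT, and 6 to 14 lower and 0 to 2 higher for APP/PS1 against WT. Of these fits, shares of all genes are given here only for those without WT 3. The ranges thus show how far the counts move, not whether they exceed the share of all genes. In the other settings the count at the adjusted p was 0, without a filter, with a minimum of 0.1 FPKM and with the length trend removed among them. No log2 difference called by a test changed sign. The median log2 difference of the members lay between -0.05 and 0.05 for RMF against sham, between -0.06 and 0.04 for sham against WT, between -0.10 and -0.04 for RMF against WT, and between -0.07 and 0.00 for APP/PS1 against WT over all settings. Replicate numbers are shared by the groups, but correlations of same-numbered libraries lay between -0.246 and 0.156 over 10 pairs and those of others between -0.204 and 0.197, so the numbers were not taken as pairs. With the replicate block 0 members were called in every comparison, against 0 without it. At 68124548 or more counts in each library, the median half-width of a 95% interval was 0.40 for RMF against sham on the log2 scale, against 0.31 over all genes.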

Other observations

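Low members included 2 whose libraries were far apart within a group, in sham for Kcnn3 and in every group for Kcnk12. Kcnn3, an SK channel, had 18.7, 26.6, 23.3 and 27.7 CPM in RMF, 3.66, 30 and 23 CPM in sham and 23.6, 21.9, 15.9 and 22.6 CPM in WT libraries, so that sham 1 alone was low. Kcnk12, a two-pore channel subunit, had 1.2, 2.57, 3.61 and 5.17 CPM in RMF, 8.94, 2.91 and 0.881 CPM in sham and 1.09, 2.9, 5.28 and 5.36 CPM in WT libraries, so that the 3 sham libraries spanned the whole range of the 11. Both genes were chosen after their values were seen.

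With WT 3 left out, Kcnj16 and Kcnk6 were the 2 members higher in sham than in WT at an unadjusted p of 0.05 in edgeR. Kcnj16, an inward rectifier subunit of astrocytes, had 13.6, 18.7, 17 and 14.5 CPM in RMF, 15.5, 17.2 and 18.5 CPM in sham and 13.4, 13.6, 22.9 and 11.6 CPM in WT libraries. Its log2 difference without WT 3 was 0.41 for sham against WT (edgeR's adjusted p 0.288), against 0.15 with it. Kcnk6, a two-pore subunit, had 2.82, 4.95, 4.39 and 4.85 CPM in RMF, 3.67, 5.22 and 3.35 CPM in sham and 2.29, 2.34, 4.93 and 3.33 CPM in WT libraries, and a log2 difference without WT 3 of 0.62 for sham against WT (edgeR's adjusted p 0.405). Neither passed the threshold. Summed astrocyte markers were 4439 to 4713 CPM in RMF, 4369.9 to 5047 CPM in sham and 3230.1 to 3918 CPM in WT libraries, and their part in these values was not tested.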
